A study of Mus musculus with 20 samples.

Results

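The 9 genes described here serve glucose sensing and glycogen turnover in the liver: Slc2a2, Gckr, Mlxipl, Mlx, Txnip, Gys2, Pygl, Ppp1r3b and Ppp1r3c. They were taken by name from 2 count tables that list 27052 and 26286 genes, all 9 were found in both tables, and all 9 passed the filter on low counts in every test. For 3 of the 9, against 5.5% of all genes tested, the responses to raising and to lowering the liver pyruvate kinase gene Pklr differed. They are Pygl, which encodes the liver glycogen phosphorylase, Slc2a2, which encodes the glucose transporter GLUT2, and Mlx, which encodes the partner of the carbohydrate response factor ChREBP. All 3 had a negative log2 fold change in the knockdown and a positive one in the overexpression. The difference held in 20 of 20 fits with 1 liver left out for Pygl, 16 of 20 for Slc2a2 and 13 of 20 for Mlx. Only Pygl was also called in the Pklr overexpression taken alone, where it rose 1.45-fold. That call lay close to the threshold and held in 1 of 10 fits with 1 liver left out. No member passed the test in the knockdown.

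In the hepatocyte, GLUT2 lets glucose pass both ways across the cell membrane, and the Gckr protein holds the enzyme that traps glucose as its phosphate in the nucleus when sugar is scarce. ChREBP, encoded by Mlxipl, binds DNA together with Mlx when sugar phosphates are plentiful and turns on glycolytic and lipogenic genes, Pklr among them, and Txnip, an arrestin-like protein that curbs glucose uptake. Glycogen is extended by glycogen synthase (Gys2 in liver) and shortened by glycogen phosphorylase (Pygl in liver), and both enzymes are set by protein phosphatase 1, which glycogen-targeting subunits such as those of Ppp1r3b and Ppp1r3c carry to the particle.

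The livers came from 20 male C57BL/6J mice given an AAV8 vector, an adeno-associated virus that takes well in liver, into a vein at 8 weeks of age. All 4 vectors used a thyroxine binding globulin promoter, which works in hepatocytes, and all mice then ate the same HF/HS diet until 25 weeks. The knockdown experiment compared 5 livers given a hairpin RNA directed at Pklr (shPKLR) with 5 given one directed at firefly luciferase (shLUC, its control), and the overexpression experiment compared 5 livers given the Pklr cDNA (PKLR) with 5 given GFP (its control). Each liver is 1 mouse. No group without a vector, and no group on another diet, was analysed here.

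Levels are given as CPM, which are counts scaled to the library's total with TMM factors computed within each experiment, and values listed for a group are in the order of replicates 1 to 5. Totals were 29933820 to 45413803 counts in 19 libraries and 167891680 in shPKLR replicate 4, which also stands at the edge of its group for several members. The members' knockdown fold changes that rest most on it are given with and without it. So are calls of the difference for the members and the wider gene lists. Ratios, the Gbe1 knockdown value, r with the most similar genes and summed marker levels are given with it only. All 7 hepatocyte markers matched in the tables were detected in every group, with summed levels of 63580 to 120900 CPM per liver, while 6 skeletal muscle markers summed to at most 2.22 CPM. In whole liver, fewer cells of a type and less RNA per cell cannot be told apart. Pklr was 366, 518, 343, 479.7 and 616 CPM in the shLUC livers and 69.3, 51.0, 39.5, 24.4 and 80.5 CPM in the shPKLR livers. It was 66.7, 106, 139.6, 148 and 148 CPM in the GFP livers and 801, 869, 945, 389 and 854 CPM in the PKLR livers. The labelled groups thus separate without overlap in both experiments, with an exact two-sided permutation p of 0.00794 in each, the smallest that 252 arrangements allow. Reads of the vector's Pklr and of the mouse gene are counted together. Hcn3 shares 711 exon bases with Pklr on the opposite strand. Its log2 fold change was -2.575 in the knockdown (SE 0.44, edgeR adjusted p = 0.0821) and 1.85 in the overexpression (SE 0.37, 0.0358). Whether reads of Pklr and Hcn3 were shared was not tested.

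ChREBP and Mlx bind a pair of E-box-like boxes set 5 bases apart. Promoter windows of RefSeq (GRCm38.p6, 250 bases before to 50 bases after the start site) were found for 7 of the 9 members. A pair was searched as CACGNG followed, 5 bases on, by CNCGTG or CACGNG, on both strands, and 24 of 32817 windows (0.0731%) held one. Among the members Txnip alone had a pair, which begins 85 bases before the start site, and in Pklr the downstream of its start sites had one that begins 170 bases before it. These 2 windows are shown because they carry the element by which ChREBP and Mlx are known to act, with the pair in capitals and each read 5′ to 3′ on the gene's strand (chr3:96557707-96558006, + strand, and chr3:89136373-89136672, + strand).
Txnip: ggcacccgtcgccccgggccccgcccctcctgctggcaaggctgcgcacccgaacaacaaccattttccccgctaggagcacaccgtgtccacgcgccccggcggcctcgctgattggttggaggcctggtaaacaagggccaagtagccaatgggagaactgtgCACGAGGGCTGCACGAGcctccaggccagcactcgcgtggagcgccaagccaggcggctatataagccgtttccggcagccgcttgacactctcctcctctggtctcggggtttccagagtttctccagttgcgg
Pklr: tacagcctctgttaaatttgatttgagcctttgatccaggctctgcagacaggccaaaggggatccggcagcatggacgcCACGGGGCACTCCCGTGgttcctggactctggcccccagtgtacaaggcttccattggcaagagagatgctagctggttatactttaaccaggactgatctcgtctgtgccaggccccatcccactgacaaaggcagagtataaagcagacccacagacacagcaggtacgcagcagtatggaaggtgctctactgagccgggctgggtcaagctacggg
The windows of the 3 members whose response differed between the experiments follow (Pygl at chr12:70227634-70227933, - strand; Slc2a2 at chr3:28697653-28697952, + strand; Mlx at chr11:101087040-101087339, + strand). None of the 3 held the pair; the single E-box CACGTG, marked in capitals, lay 40 bases before the Mlx start. That box is common, being present in 2346 of 32817 windows (7.15%), and among the members it was also found before Ppp1r3c and before the upstream start of Mlxipl. The Pygl window lies inside the span that the annotation used for coordinates gives the gene. The bases before the outer end of that span, at 70231488 on the - strand, were not searched. A match is a string of letters and was not read as a binding site.
Pygl: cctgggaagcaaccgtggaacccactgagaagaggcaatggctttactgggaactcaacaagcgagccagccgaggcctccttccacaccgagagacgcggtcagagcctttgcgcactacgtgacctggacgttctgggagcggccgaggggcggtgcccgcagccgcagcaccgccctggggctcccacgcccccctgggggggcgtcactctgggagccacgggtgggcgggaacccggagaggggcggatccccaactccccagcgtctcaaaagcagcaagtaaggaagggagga
Slc2a2: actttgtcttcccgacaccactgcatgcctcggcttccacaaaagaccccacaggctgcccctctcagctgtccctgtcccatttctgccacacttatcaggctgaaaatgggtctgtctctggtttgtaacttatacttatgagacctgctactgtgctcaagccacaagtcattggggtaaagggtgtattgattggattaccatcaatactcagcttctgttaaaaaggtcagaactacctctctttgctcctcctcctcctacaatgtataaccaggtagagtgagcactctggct
Mlx: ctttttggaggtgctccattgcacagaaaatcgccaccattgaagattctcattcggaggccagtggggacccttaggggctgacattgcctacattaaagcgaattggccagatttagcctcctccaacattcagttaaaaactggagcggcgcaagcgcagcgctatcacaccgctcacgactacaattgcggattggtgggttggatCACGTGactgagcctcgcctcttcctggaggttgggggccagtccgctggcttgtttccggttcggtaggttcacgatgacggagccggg

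Counted over the members, the knockdown gave 0 of 9 calls at an adjusted p under 0.05, against 0.00641% of the 15611 genes tested. With DESeq2 and with limma-voom the count was also 0 of 9. At an unadjusted p under 0.05 there were 4 of 9 (Slc2a2, Mlx, Ppp1r3b and Pygl, all with lower values in the shPKLR livers), against 15% of all genes. The median log2 fold change of the 9 was 0.08, and that of all genes 0.02. In the overexpression 1 of 9 was called (Pygl), against 2.03% of the 15842 genes tested in either direction and 1.19% in the upward direction, and 5 of 9 had an unadjusted p under 0.05, against 18.8%. DESeq2 called 2 of 9, limma-voom 1 of 9, and 1 fit of all 20 livers 0 of 9. The median of the 9 was 0.25, and that of all genes 0.01. The difference between the 2 responses, tested in 1 model of all 20 livers as the overexpression fold change less the knockdown fold change, was called for 3 of 9 members, against 5.5% of 16407 genes, and all 3 had a positive difference, against 2.75% of genes. These 3 remained without shPKLR replicate 4; limma-voom gave 3 of 9, and DESeq2 and the fit with a replicate block gave 4 of 9. The members' median difference was -0.04 (0.20 without shPKLR replicate 4) against -0.06 for all genes, and 4 of 9 were negative in the knockdown and positive in the overexpression, a pattern held by 31.3% of the 15445 genes tested in both.

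**Figure D1:**
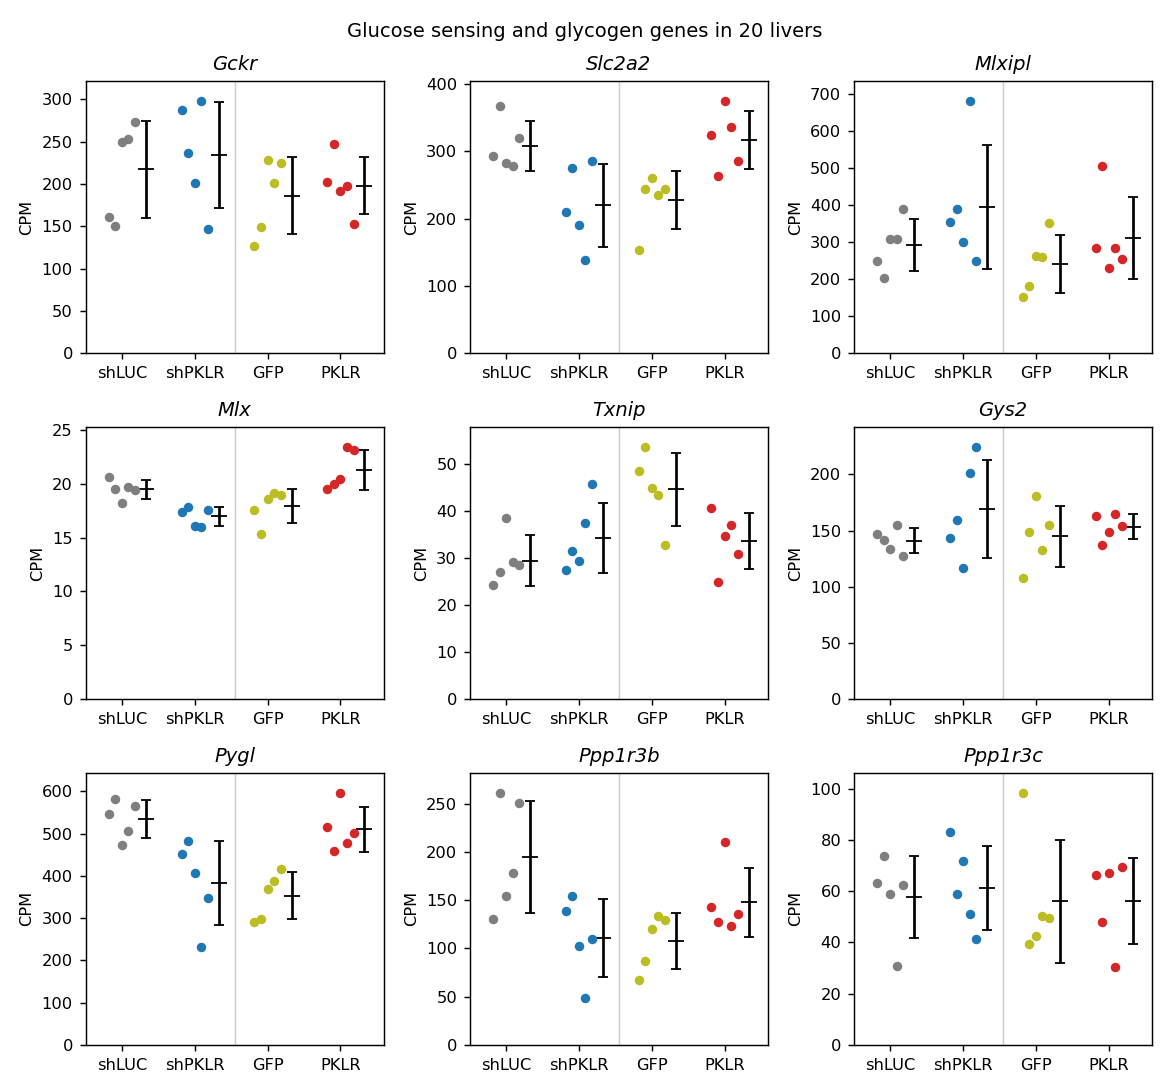
CPM of the 9 genes (vertical axis, linear, from 0) in each of 20 livers by vector; points are livers, and the bar beside them is the mean ± SD (n = 5). All PKLR livers lie above all GFP livers for Slc2a2, Mlx and Pygl; in the knockdown the groups separate for Mlx and overlap for the other 8 genes.

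**Figure D2:**
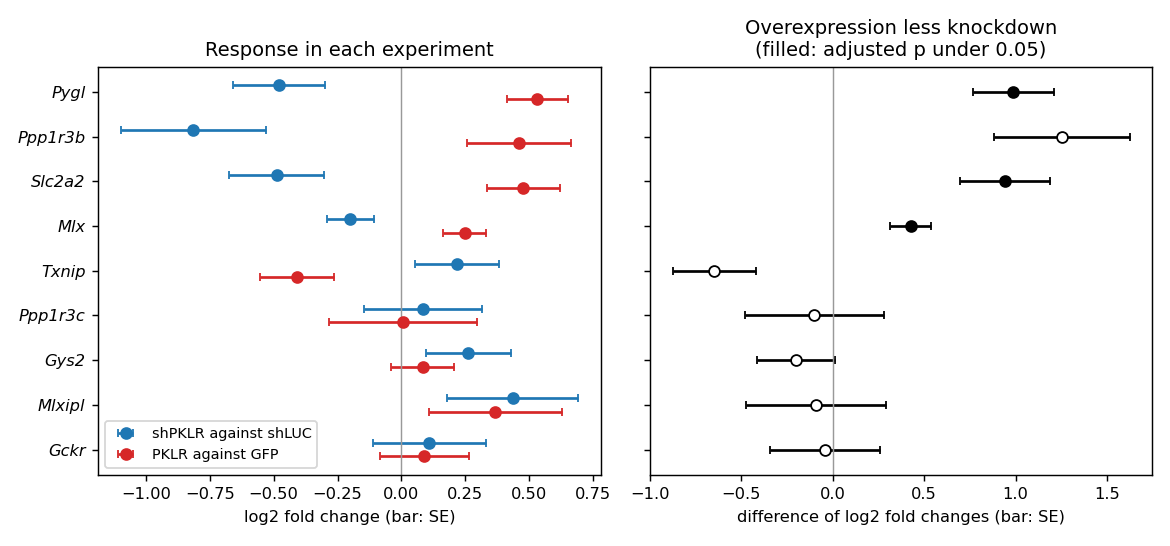
Left, log2 fold change of each gene in the knockdown (blue, shPKLR against shLUC) and the overexpression (red, PKLR against GFP); right, the overexpression value less the knockdown value, with bars for the SE and filled points for an adjusted p under 0.05. Pygl (0.99), Slc2a2 (0.94) and Mlx (0.43) are the filled points, and the 5 lowest rows have differences below 0.

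Among the genes of glucose entry, Slc2a2 (ENSMUSG00000027690, GRCm38 chr3:28697903-28731359, + strand, 11 exon blocks) was at 293, 368, 283, 279 and 320.5 CPM in the shLUC livers. In the shPKLR livers it was at 209.9, 276, 191, 138 and 286 CPM. Replicate 5 alone lay within the control range, replicate 2 just under it and the other 3 well under it. The log2 fold change was -0.49 (SE 0.19, adjusted p = 0.292), and -0.36 without shPKLR replicate 4. In the overexpression the GFP livers had 154, 245, 261, 235 and 244 CPM. The PKLR livers had 324, 263, 375, 337 and 286 CPM, all above the highest GFP liver, although replicate 2 exceeded it by little. The fold change there was 0.48 (SE 0.14) and did not pass (adjusted p = 0.106; DESeq2 gave 0.0369). The difference of the responses, 0.94 (SE 0.25, adjusted p = 0.0306), did pass. It missed the threshold without shLUC replicate 2 or 5 or PKLR replicate 3 or 4 (0.87 to 0.93, adjusted p up to 0.0635).

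Gckr (ENSMUSG00000059434, chr5:31297443-31327314) varied as much within groups as between them. Its means were 217 ± 57.2 (SD, n = 5) in shLUC, 234 ± 62.4 in shPKLR, 186 ± 46.0 in GFP and 198 ± 33.7 CPM in PKLR livers. The log2 fold changes were 0.11 (SE 0.22) in the knockdown and 0.09 (SE 0.17) in the overexpression, with a difference of -0.04 (SE 0.30). The groups overlapped in both experiments.

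The other genes of glucose uptake and phosphorylation were taken from a list of 15 further transporters, hexokinases and glucose-6-phosphate handling genes, of which 13 were tested. None was called in the knockdown or in the overexpression, where the smallest p-values were those of Slc2a4, Slc2a5, Slc37a4 and Hk2. The difference was called for 4 of 13, against 5.5% of all genes: positive for Slc2a5, a fructose transporter (1.54, SE 0.42), Slc2a4, the insulin-regulated transporter GLUT4 (2.71, SE 0.73), and Slc37a4, which carries glucose-6-phosphate into the endoplasmic reticulum (0.86, SE 0.24), and negative for the hexokinase Hk2 (-1.50, SE 0.39). Slc2a4 was scarce, at 0.12 to 2.99 CPM, as was Hk2. Without shPKLR replicate 4 the call remained for Hk2 alone. Slc37a4 was 107 to 129 CPM in shLUC and 69.8 to 128 CPM in shPKLR livers, and 43.5 to 93.1 CPM in GFP against 102 to 142 CPM in PKLR livers, where the groups did not overlap (log2 fold change 0.60, SE 0.18, adjusted p = 0.105).

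Of the ChREBP partners, Mlx (ENSMUSG00000017801, chr11:101087277-101092207, + strand) was low and tight: 20.7, 19.5, 18.2, 19.7 and 19.4 CPM in shLUC livers against 17.4, 17.9, 16.1, 16.0 and 17.6 CPM in shPKLR livers. It was the only member whose knockdown and control livers did not overlap, a state found for 3.27% of genes tested. The values in the overexpression were 17.6, 15.3, 18.6, 19.2 and 19.0 CPM for GFP and 19.5, 20, 20.4, 23.4 and 23.2 CPM for PKLR, again without overlap. Non-overlap in that experiment held for 3 of 9 members (Slc2a2, Mlx and Pygl) and for 5.03% of genes. The fold changes of Mlx were small, -0.20 (SE 0.09, adjusted p = 0.331) and 0.25 (SE 0.08, adjusted p = 0.138) on the log2 scale, and their difference of 0.43 (SE 0.11) passed at an adjusted p of 0.034. That call was lost when genes with low counts were kept in the test (adjusted p = 0.0614) and in 7 of 20 fits that left out 1 liver (shLUC replicates 1, 2 and 5, GFP replicates 1 and 2, and PKLR replicates 4 and 5; difference 0.38 to 0.43, adjusted p up to 0.0667). Psmc3ip, which overlaps 385 exon bases of Mlx on the opposite strand, stayed at 0.03 to 0.70 CPM.

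Mlxipl (ENSMUSG00000005373, chr5:135089890-135138382, + strand) showed no such pattern. The shLUC livers were at 251, 204, 308, 309 and 390.5 CPM and the shPKLR livers at 355, 389.5, 301, 682 and 250.1 CPM. A single liver, shPKLR replicate 4, set much of the knockdown value: the log2 fold change was 0.43 (SE 0.26) with it and 0.15 without it, and neither passed. PKLR livers were at 285, 507, 229.7, 284 and 254 CPM against 152, 182, 262, 261 and 353 CPM in GFP livers (0.37, SE 0.26, adjusted p = 0.481). The gene has 2 annotated starts whose windows are 17001 bases apart; the upstream start is known to give the shorter ChREBP-beta form. The gene-level counts do not separate the forms. Gm43500, which lies antisense to Mlxipl and shares 235 of its exon bases, was at 0.40 to 3.02 CPM, highest in shPKLR replicate 4.

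Txnip (ENSMUSG00000038393, chr3:96557957-96561883, + strand) had fold changes of the sign opposite to those of Pklr in both experiments, and passed the test in neither. It was at 24.2, 26.9, 38.4, 29.2 and 28.5 CPM in shLUC and 27.3, 31.5, 29.4, 37.4 and 45.6 CPM in shPKLR livers (log2 fold change 0.22, SE 0.16, adjusted p = 0.504). The GFP livers were the highest, at 48.5, 53.6, 44.9, 43.3 and 32.7 CPM, against 40.5, 24.9, 34.7, 36.9 and 30.9 CPM in PKLR livers (-0.41, SE 0.15, adjusted p = 0.157). The difference was -0.65 (SE 0.23, adjusted p = 0.0887). Gm15441 lies antisense to Txnip and shares 606 of its exon bases. Because the strand setting of the counting is not known, reads of the pair cannot be told apart. Gm15441 was scarce, at 0.03 to 1.48 CPM, and its difference passed at -4.17 (SE 0.89, adjusted p = 0.0109), the same sign as that of Txnip; it was not tested in the knockdown.

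Among 15 further partners and carbohydrate-responsive genes, all tested, 0 were called in the knockdown and 4 rose in the overexpression, where 1.19% of all genes tested rose. The 4 were Pnpla3, a lipid droplet protein (2.75, SE 0.34), Thrsp, a lipogenic protein (2.04, SE 0.44), Tkfc, the triokinase of fructose breakdown (0.86, SE 0.16), and Khk, ketohexokinase (0.78, SE 0.17). The difference was called for the same 4 (against 5.5% of all genes), at 5.31, 3.45, 1.30 and 1.11, with and without shPKLR replicate 4. Khk was at 214 to 368 CPM in the GFP livers and 451 to 660.0 CPM in the PKLR livers. The shLUC livers had 528 to 753 CPM and the shPKLR livers 324 to 646 CPM, so the GFP livers were low beside the other control too. The list's median was 0.18 in the overexpression and -0.17 in the knockdown. Its DNA-binding members were not among the calls.

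In glycogen breakdown, Pygl (ENSMUSG00000021069, chr12:70190811-70231488, - strand, 22 exon blocks) had the highest level per kilobase of exon among the 9 genes in the shLUC livers, 77.6 ± 6.52 CPM per kb (SD, n = 5). It was at 547, 582, 473, 506 and 566 CPM in shLUC livers and 451, 482, 407, 231 and 348 CPM in shPKLR livers. Only shPKLR replicate 2 reached the control range, and replicate 4 was the lowest. The log2 fold change was -0.48 (SE 0.18, adjusted p = 0.288) and -0.34 without replicate 4. In the overexpression the GFP livers had 291, 298, 370.2, 389 and 417 CPM. The PKLR livers had 517, 458, 597, 479 and 503 CPM, all above every GFP liver. This rise, 0.53 (SE 0.12, adjusted p = 0.0465), lay close to the threshold: it held in 1 of 10 fits that left out 1 liver (that without GFP replicate 5), where the adjusted p ran from 0.0300 to 0.108 and the log2 fold change from 0.46 to 0.60, and not with RLE size factors (0.0530) or in 1 fit of all 20 livers (0.0888). The difference between the responses, 0.99 (SE 0.22, adjusted p = 0.0141), held in all 7 other settings and in 20 of 20 fits that left out 1 liver.

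Of 11 further breakdown genes, 10 were tested, and 0 were called in the knockdown, the overexpression or the difference. They include the phosphorylase kinase subunits and the Pygb and Pygm forms. At an unadjusted p under 0.05, the named genes were Phkg2 (0.47) and Epm2a (-0.65) in the knockdown and Phkb (0.19) and Nhlrc1 (0.59) in the overexpression. Without shPKLR replicate 4 the difference of Epm2a, the glycogen phosphatase laforin, was called as well. Epm2a was at 5.89 to 7.14 CPM in shLUC livers and 1.59 to 5.43 CPM in shPKLR livers.

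In glycogen synthesis, Gys2 (ENSMUSG00000030244, chr6:142422613-142473109, - strand) was even across the livers of 2 groups and spread in the others. Its levels were 147, 142, 133, 155 and 127 CPM in shLUC and 143, 159.5, 116, 201 and 224 CPM in shPKLR livers. They were 108, 148, 181, 132 and 155 CPM in GFP and 162, 137, 149, 165 and 154 CPM in PKLR livers. The coefficient of variation was 7.87% in shLUC and 7.32% in PKLR livers, against 25.9% in shPKLR and 18.8% in GFP livers. The log2 fold changes, 0.26 (SE 0.17) and 0.08 (SE 0.12), and their difference of -0.20 (SE 0.21, adjusted p = 0.567) did not pass.

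Neither of the 2 phosphatase-targeting subunits passed the edgeR test at its main setting in any comparison. Ppp1r3b (ENSMUSG00000046794, chr8:35375739-35388139, + strand), the main liver form, was at 131, 261, 154, 178 and 250.4 CPM in shLUC and 139, 155, 102, 48.6 and 109.9 CPM in shPKLR livers. The log2 fold change of -0.81 (SE 0.28, adjusted p = 0.268) was the largest among the members in the knockdown, and it was -0.62 without shPKLR replicate 4. GFP livers had 67.3, 87.3, 119.9, 133 and 129.7 CPM and PKLR livers 142, 127, 211, 123 and 136 CPM, with 2 PKLR livers inside the GFP range (0.46, SE 0.21, adjusted p = 0.254). The difference, 1.25 (SE 0.37), missed the threshold at an adjusted p of 0.0525 and passed it with RLE size factors (0.0494), DESeq2 (0.0149) and a replicate block (0.0420). Ppp1r3c (ENSMUSG00000067279, chr19:36731731-36736653, - strand), the form that many tissues share, had means of 57.7 ± 16.1 (SD, n = 5) in shLUC, 61.2 ± 16.4 in shPKLR, 56.0 ± 24.1 in GFP and 56.2 ± 16.7 CPM in PKLR livers. Its fold changes were 0.08 (SE 0.23) and 0.00 (SE 0.29). The difference between the responses of the subunits was not tested.

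Of 16 further synthesis genes, 13 were tested in each experiment and 14 in the difference. In the overexpression 1 of 13 was called, against 2.03% of all genes: Gbe1, the glycogen branching enzyme, rose by 0.62 (SE 0.13, adjusted p = 0.0376). The GFP livers were at 76.3, 73.6, 79.7, 85.6 and 85.8 CPM and the PKLR livers at 151, 91.8, 146, 125 and 101 CPM. The knockdown values of Gbe1 were 98.6, 143, 94.6, 108 and 133 CPM in shLUC and 57.3, 85.1, 58.1, 16.6 and 92.9 CPM in shPKLR livers (-0.90, SE 0.34, adjusted p = 0.292). The liver at 16.6 CPM is replicate 4. The difference was called for 3 of 14, against 5.5% of all genes: for Gbe1 (1.49, SE 0.40), for Ppp1ca, a catalytic subunit of protein phosphatase 1 (0.75, SE 0.20), and for Ugp2, which makes UDP-glucose (0.93, SE 0.26). Without shPKLR replicate 4 the calls of Gbe1 and Ppp1ca remained and that of Ugp2 did not. Ppp1r3g, another targeting subunit, had -1.20 (SE 0.32, adjusted p = 0.0823) in the overexpression, the sign opposite to that of Ppp1r3b.

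Per kilobase of exon, Gys2 and Pygl can be set side by side within a liver. The ratio of Gys2 to Pygl was 0.70, 0.63, 0.73, 0.80 and 0.58 in shLUC livers and 0.82, 0.86, 0.74, 2.26 and 1.67 in shPKLR livers. It was 0.96, 1.29, 1.27, 0.88 and 0.97 in GFP livers and 0.82, 0.78, 0.65, 0.90 and 0.79 in PKLR livers. The ratio was thus under 1 in all shLUC and all PKLR livers, whereas it passed 1 in 2 shPKLR and 2 GFP livers. Where it crosses 1 depends on the exon lengths used, 2657 bases for Gys2 and 6895 for Pygl. In CPM without that scaling, Pygl exceeded Gys2 even in shPKLR replicate 4 (231 against 201 CPM). Which of the 2 RNAs has more copies is therefore not shown. The mean of 1.27 ± 0.67 (SD, n = 5) in shPKLR livers rests on replicates 4 and 5. The ratio of Ppp1r3c to Ppp1r3b averaged 0.72 ± 0.28 in shLUC, 1.42 ± 0.64 in shPKLR, 1.38 ± 1.10 in GFP and 0.87 ± 0.24 in PKLR livers, where GFP replicate 1 alone stood at 3.34. The ratio of Mlxipl to Mlx was 5.43 ± 1.38, 8.50 ± 3.98, 4.82 ± 1.31 and 5.36 ± 2.18 in the same order of groups, and shPKLR replicate 4 had 15.4. These ratios share the members' counts and were not tested.

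**Figure D3:**
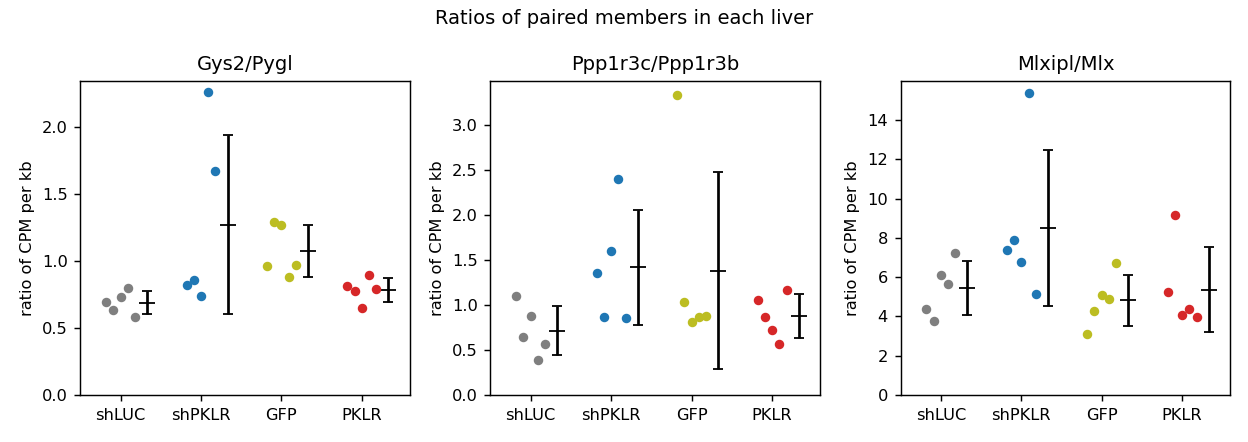
Ratio of CPM per kb of exon for 3 pairs of genes (vertical axis, linear, from 0) in each liver by vector, with mean ± SD (n = 5). All shLUC and PKLR livers lie under 1 for Gys2 to Pygl, and single livers stand far above their groups: shPKLR replicate 4 for Gys2 to Pygl and for Mlxipl to Mlx, and GFP replicate 1 for Ppp1r3c to Ppp1r3b.

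To set the 4 groups in one order, the 20 libraries were normalized together. For Pygl the means ran shLUC, PKLR, shPKLR, GFP (551, 491, 398 and 343 CPM), and neighbours in that order overlapped. For Ppp1r3b the order was the same (201, 142, 115 and 105 CPM). Gckr ran shPKLR, shLUC, PKLR, GFP, and Txnip ran GFP, shPKLR, PKLR, shLUC, with every pair of neighbours overlapping. The order of Slc2a2, Mlxipl, Mlx, Ppp1r3c and Gys2 changed between this normalization and that within each experiment, so none is given. The 2 control groups were not alike: GFP livers lay below shLUC livers without overlap for 4 of 9 members, against 7.99% of genes without overlap in either direction. The gap was narrow for Mlx (highest GFP liver 18.7, lowest shLUC liver 18.8 CPM) and for Ppp1r3b (130 and 134.5 CPM). With each experiment normalized alone, the controls overlapped for both genes. The highest GFP and lowest shLUC livers were then 19.2 and 18.2 CPM for Mlx, and 133 and 131 CPM for Ppp1r3b. The mean of GFP livers was 0.520 of that of shLUC livers for Ppp1r3b, 0.622 for Pygl, 0.696 for Slc2a2 and 0.866 for Mlx, and it was 0.247 for Pklr itself. For Txnip the ratio was 1.43. Vector type and experiment differ together between these controls and cannot be told apart.

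Within groups, livers also differed in their Pklr level. Over the 20 livers, each taken as its deviation from its group's mean on the log2(CPM + 0.5) scale, Ppp1r3b had a Pearson r of 0.78 with Pklr (Spearman rho 0.73), and 0.73 without the 2 livers farthest in Pklr, shPKLR replicate 4 and PKLR replicate 4. Slc2a2 had r = 0.64 (rho 0.48; 0.66 without them) and Pygl 0.63 (rho 0.54; 0.47 without them). The other 6 members were between -0.24 and 0.16, and most shifted without those 2 livers: Gys2 from 0.15 to 0.52, above Pygl, Mlx from 0.16 to 0.36, Gckr from 0.06 to 0.30, Mlxipl from -0.04 to 0.29, Ppp1r3c from 0.02 to -0.36 and Txnip from -0.24 to -0.13. Among the members Pygl and Ppp1r3b had r = 0.89, Gckr and Mlxipl 0.85, and Gys2 and Ppp1r3c -0.65 (0.81, 0.80 and -0.65 without the 2 livers farthest in the first gene of each pair). Slc2a2 had r = 0.79 with Ppp1r3b and 0.69 with Pygl. These 2 values fell to 0.58 and 0.38 without the 2 livers farthest in Slc2a2, shPKLR replicate 4 and GFP replicate 1. By experiment, r with Pklr differed in sign for Mlxipl (-0.55 in the knockdown, 0.48 in the overexpression), Gckr (-0.28, 0.53) and Mlx (0.59, -0.07). It also did for Ppp1r3c (-0.01, 0.05), but not for Gys2 (0.03, 0.31) or Txnip (-0.04, -0.46). Ppp1r3b, Slc2a2 and Pygl were positive in both. The points of one experiment share a normalization, and no p is attached. These values by experiment aside, 14 such relations are counted here.

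**Figure D4:**
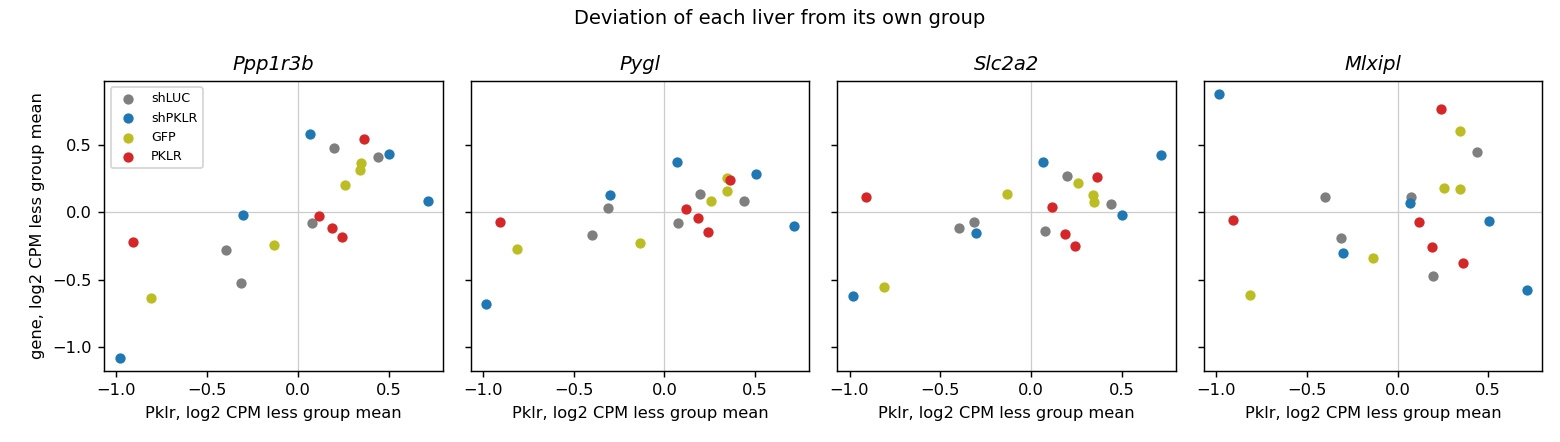
Deviation of each liver from its group's mean, log2 CPM, for Pklr (horizontal axis) and 4 genes (vertical axis), coloured by vector (20 livers). Ppp1r3b, Pygl and Slc2a2 have r of 0.78, 0.63 and 0.64 with Pklr, with shPKLR replicate 4 at the lower left, where Mlxipl instead has its highest point.

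The genes most like each member in these deviations were sought among 7264 whose mean reached 10 CPM in both experiments. Pygl was nearest to Rmdn2 (r = 0.96) and Abhd3 (0.92), and Ppp1r3b to Enpep (0.91) and Pygl (0.89). Slc2a2 was nearest to Fam107b and Hs6st1 (0.90 each), Gckr to Rsrp1 and Slc47a1 (0.94 each), and Mlxipl to Sned1 and Tle2 (0.93 each). Txnip was nearest to Lmna (0.83) and Slc25a47 (0.74), and Mlx to Psmd6 and Slc41a2 (0.78 each). Gys2 was nearest to Bri3 (0.82) and Galk1 (0.81), the galactokinase, and Ppp1r3c to Nfil3 (0.87), a circadian repressor, and Eif2ak2 (0.80). These values are over the same 20 livers on which the genes were picked as the highest of many. How high such an r runs without any relation was not tested. Taken by experiment, they ran from 0.53 (Mlx with Slc41a2 in the knockdown) to 0.98 (Pygl with Rmdn2 in the knockdown).

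Other features of the livers moved in the same comparison as Pygl and Gbe1. For scale, 8088 of all 15842 genes tested in the overexpression had a positive log2 fold change (median 0.01). Of these 15842 genes, 188 were called higher and 134 lower. In the knockdown 7376 of 15611 genes were negative (median 0.02). Of 10 pericentral hepatocyte markers, 9 had positive log2 fold changes in the overexpression (median 0.43), and Glul and Nkd1 rose; their summed level was 3497 to 6788 CPM in GFP and 6352 to 8332 CPM in PKLR livers. In the knockdown 8 of 10 were negative (median -0.08, 0 called), with 6783 to 8712 CPM in shLUC and 4564 to 8245 CPM in shPKLR livers. Of 10 periportal markers 8 were negative in the overexpression (median -0.53) and Aldh1b1 fell, at 6779 to 9080 CPM in GFP and 4963 to 7656 CPM in PKLR livers. All 10 stellate and matrix markers were negative there (median -0.86, Thbs2 fell), with summed levels of 224 to 480.5 CPM in GFP and 147 to 278 CPM in PKLR livers. Of 12 feeding and fasting responsive genes 10 were negative (median -0.68), and Igfbp1, a binding protein that insulin lowers, fell by 2.00 (SE 0.19): it was at 49.4 to 83.5 CPM in GFP livers and 12.1 to 21.3 CPM in PKLR livers, while shLUC livers had 9.19 to 22.2 CPM. Summed, that list was at 2582 to 3957 CPM in GFP, 1331 to 2987 CPM in PKLR, 1358 to 2040 CPM in shLUC and 1589 to 2782 CPM in shPKLR livers. Cyp2e1 made up much of the pericentral sum, at 2185 to 5113 CPM in GFP and 4549 to 5975 CPM in PKLR livers. It was not called in the overexpression (edgeR adjusted p = 0.194). Pck1, in both the periportal and the feeding and fasting list, was at 1406 to 2597 CPM in GFP and 699.7 to 2227 CPM in PKLR livers. The sums of those 2 lists are thus not independent. In none of these lists was a matched marker at 0 in every liver. Their part in the results on the members was not tested.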

How the data were processed

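Per the deposited files, the authors gave whole-number counts per gene in a separate table for each experiment, with no normalization. The submitters' processing notes name HISAT2, DESeq2, GRCm38 and mm10. How reads were counted, with which annotation and strand setting, is not given in the sources used here. Per the labels' protocols, libraries came from frozen liver with a stranded total RNA kit. Columns were matched to livers by name (0 left over). GENCODE's GRCm38 annotation gave symbols, exon lengths and coordinates (26859 and 26094 identifiers matched, 25238 genes in both tables).

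Genes were tested with edgeR 4.0.16 (quasi-likelihood, robust, R 4.3.3) on the counts after filterByExpr and TMM normalization, with Benjamini-Hochberg adjustment over all genes tested and a threshold of 0.05. Where no tool is named, an adjusted p is edgeR's. The SE is the log2 fold change divided by the square root of F. CPM is the count scaled to the TMM-adjusted library total, and CPM per kb divides it by the union of exons. On simulated counts with known changes, the knockdown test (15420 genes) called 56% of 2-fold and 95% of 4-fold changes. The overexpression test (15704 genes) called 68.5% and 97%, and the difference test (16281 genes) 53.1% and 78.2%. Calls numbered 153 in the simulated knockdown and 1 in the measured one, so the simulated shares may overrate the measured knockdown test. There Pklr (log2 -3.135) alone passed, while Pnpla3 (-2.59) and Thrsp (-1.43) missed the threshold, at edgeR adjusted p of 0.194 and 0.211. Alternatives were RLE size factors, no filter, a filter of 1 CPM in 5 libraries, DESeq2 1.42.0, limma-voom (limma 3.58.1), a replicate block, thinning of the deep library, 1 fit of all 20 livers, and leaving out each liver.

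The members and lists were chosen with earlier results of these data known. Named are all members, Pklr, and from the 4 wider lists the genes called and the 2 with the smallest p per list and experiment. Also named are the 2 genes most like each member (predicted genes left out), and in marker lists at most 2 genes per list and experiment. Genes that overlap members or Pklr are named for that reason. Skeletal muscle, macrophage, endothelial, cholangiocyte, lymphocyte, neutrophil, erythroid, adipocyte and clock lists were also counted.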

Additional observations from a re-analysis of the deposited data

Results flagged for a closer look

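The responses to overexpression and to knockdown differed for Slc2a2 by 0.94 (log2), for Mlx by 0.43 and for Pygl by 0.99, each by the test of the difference in 1 model of all 20 livers.

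Of 36 sets of 5 livers (9 genes in 4 groups), 4 had 1 liver far from the others by Dixon's criterion, where chance gives about 1 in 20. Slc2a2 was lowest in GFP replicate 1, at 153.5 CPM; without that liver its overexpression log2 fold change was 0.37 in place of 0.48. The same liver was highest for Ppp1r3c, at 98.3 CPM, and without it that gene's value was 0.31 in place of 0.00. Mlxipl was highest in PKLR replicate 2, at 507 CPM, and had 0.12 in place of 0.37 without it. Ppp1r3b was highest in PKLR replicate 3, at 211 CPM, and had 0.28 in place of 0.46 without it. None of these 4 overexpression values passed the threshold with or without the liver.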

How the results depend on the processing

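Over the alternatives run for the members and Pklr, 588 of 620 values kept their side of the threshold, 23 lost a call and 9 gained one. The sign differed from the reported one in 32 of the 588, with no call on either side: 11 for Ppp1r3c in the overexpression, 7 for Gckr, 4 for Mlxipl and 4 for Ppp1r3c in the difference, and the rest for Gckr, Ppp1r3c and Gys2, all with a reported log2 value of at most 0.11 in size. The knockdown count of 1 gene became 7 with RLE size factors, 17 with no filter, 260 with DESeq2, 8 with limma-voom, 7 with the deep library thinned, 114 in 1 fit of all 20 livers, and 1 to 12 with 1 liver left out. Its 9 members stayed without a call in each of these. The overexpression count of 322 became 1107 with DESeq2 and 128 to 469 with 1 liver left out; 1 fit of all 20 livers gave 338, of which 120 were higher and 218 lower, against 188 and 134. The difference count of 902 became 1626 with DESeq2 and 485 to 1384 with 1 liver left out, and with no filter the median difference of all genes was -0.12 in place of -0.06. The causes were not tested. Ppp1r3b gained its call of the difference without shLUC replicate 1, shPKLR replicate 1 or 2, or GFP replicate 5 (1.33 to 1.40), and Txnip without GFP replicate 5 (-0.74, adjusted p = 0.0466). Thinning was not run for the overexpression, which has no library that deep.

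The labels number the replicates alike, but same-numbered livers did not deviate together (r from -0.23 to 0.38; 3 of 10 pairs had their highest r with their own number), so the numbers were not taken as pairs. With the replicate block the counts were 3, 544 and 962, and among the members Ppp1r3b gained its call in the difference.

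With 5 livers a group, 53.1% to 68.5% of simulated 2-fold changes were called; all members lie under 2-fold in each comparison, apart from Ppp1r3b in the difference. The depth of 29933820 counts or more leaves genes under a few CPM, such as Gm15441 and Slc2a4, the least precise.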

Other observations

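Lists for cell types other than hepatocytes were counted without naming what they might mean for the members. Over all genes tested, 8088 of 15842 were positive in the overexpression, where 134 were called lower, and 8235 of 15611 were positive in the knockdown. In the overexpression, 4 of 10 macrophage markers were positive (median -0.29) and Gpnmb, a glycoprotein of lipid-laden macrophages, fell by 3.55 (SE 0.75). Their summed level was 92.9 to 387 CPM in GFP and 83.5 to 266 CPM in PKLR livers. In the knockdown all 10 were positive (median 0.53) and 0 were called. All 8 lymphocyte markers tested in the overexpression were negative (median -0.55), and Igkc fell by 0.74 (SE 0.16), while the 6 tested in the knockdown were all positive (median 0.30, 0 called). None of 8 endothelial, 5 cholangiocyte, 3 neutrophil, 5 erythroid, 1 skeletal muscle and 2 adipocyte markers tested was called in either experiment. Their medians, in that order, were 0.04, -0.06, -0.28, -0.35, -0.11 and -0.05 in the overexpression, and -0.02, 0.26, 0.79, -0.80, 0.58 and 0.17 in the knockdown.

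Core clock genes summed to 209 CPM in GFP replicate 1 and to 387.5 to 468 CPM in the other GFP livers, against 456 to 534 CPM in PKLR livers. Of 16, 12 were positive in the overexpression (median 0.33) and 0 were called. In the knockdown they ran from 335 to 483 CPM in shLUC and 276 to 575 CPM in shPKLR livers (median 0.05, 0 called).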
